A study of Mus musculus with 4 samples.

Results

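Isolated reproducible HTATSF1 peaks are narrow chromatin regions that stood alone in the first of 2 immunoprecipitations of HTATSF1 from mouse embryonic stem cells and were found again in the second. They were chosen from the 19489 peaks of replicate 1 by position, width and overlap. A peak was kept if it lay on an autosome other than chromosomes 8 and 11 (on chromosome 7, beyond the first 36 Mb), was under 1000 bp wide, had no other replicate 1 peak within 100 kb of either edge, and had at least 1 bp in common with a replicate 2 peak. These steps left 15386 peaks on the 17 chromosomes of the rule, 15171 of them narrow, 1392 of those isolated, and 576 of those shared, which is 2.96% of the replicate 1 list. All 576 are described here. Position, width, isolation and overlap fixed the choice, so the members' values on these measures are given as descriptions. All positions are in mm9 and are counted from 1.

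HTATSF1, also called Tat-SF1, is an RNA-binding nuclear protein first known as a cellular cofactor of the Tat protein of HIV. It carries RNA recognition motifs and binds the U2 small nuclear ribonucleoprotein, the part of the spliceosome that recognises the branch point of introns. Chromatin immunoprecipitation followed by sequencing (ChIP-seq) recovers DNA crosslinked to a protein, either directly or through other proteins or nascent RNA, and a peak is a stretch where a peak caller found more reads than its model allowed. Proteins that travel with transcription and splicing often give such signal at active genes.

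The cells were embryonic stem cells from tatsf1 flox/flox CreERT2 mice, that is, with a conditional allele of the gene and a Cre recombinase that is activated by ligand, and they received no treatment. They were cultured on mouse embryonic fibroblasts (MEFs), so chromatin of these feeder cells may be present, and peak lists hold no expression of marker genes by which cell identity could be checked. Chromatin was precipitated in 2 libraries with a rabbit antibody to an HTATSF1 peptide, and 2 input libraries received no antibody. Inputs share the cells, the allele and the lack of treatment, and were not analysed here.

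Each immunoprecipitated library came with the authors' own list of peaks, 19489 in replicate 1 and 14118 in replicate 2. The score of a peak is the authors', and what it measures is not given in the sources used here. Its lowest value was 50.01 in replicate 1 and 50.00 in replicate 2. Scores were therefore compared as percentiles, the position of a peak in its own list from the lowest score (near 0) to the highest (100). The read depth behind the lists is unknown. Nothing in the labels ties the libraries to separate cultures, so what differs between them may be technical. With 1 list per library the overlap itself has no replicate, and no test was made. Intervals of shares are exact 95% binomial intervals (Clopper-Pearson), those of medians are 95% order-statistic intervals, and both cover counting error only.

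Of the 1392 isolated narrow peaks, 576 (41.4%, interval 38.8 to 44.0%) were found again in replicate 2. The background, over all 15171 narrow peaks of the same chromosomes, was 44.2%, and over all 15386 peaks there it was 44.8%. Since the rule used this overlap, the share is a description of how the members arose. The 12 isolated peaks of 1000 bp or more were all shared.

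Isolated HTATSF1 peaks that recurred lay above the middle of the list by score, as other shared peaks did. The members' replicate 1 scores ran from 50.06 through a median of 115.2 (interval 105.98 to 121.4) to 469.6. The median score percentile was 65.8 (interval 61.4 to 68.7), and the quartiles were 38.2 and 84.5. The 816 isolated narrow peaks that did not recur had a median score of 73.7 and a median percentile of 37.1 (interval 34.1 to 40.6). Narrow shared peaks with a neighbour within 100 kb, 6124 in number, had a median score of 117.8 and a median percentile of 67.0 (interval 66.1 to 68.1). The members thus lay above the unshared isolated peaks, and their interval overlapped that of the shared peaks with neighbours.

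Members were slightly narrower than shared peaks with neighbours. Their widths ran from 115 to 997 bp with a median of 455.5 bp (interval 431 to 472). The shared narrow peaks with neighbours had a median of 483 bp (477 to 490), and these intervals do not overlap. Unshared isolated peaks had a median of 317 bp (306 to 329), and unshared narrow peaks with neighbours 333 bp (331 to 338). Isolated peaks were thus the narrower ones among unshared peaks too, so this was not particular to the members. Width and score went together among the members, with a Spearman correlation across the 576 members of 0.80 in replicate 1. The correlation among their partners in replicate 2 was 0.70. Both values of a pair come from the same peak call.

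Partners in replicate 2 ranged from the lowest scores of their list to near its top. Where a member had several partners, the one with the highest score was taken. A single partner was found for 544 members and more than 1 for 32. Partner scores ran from 50.02 through a median of 82.9 (interval 77.8 to 85.6) to 459.8, and the median percentile was 60.5 (55.9 to 63.2). Within pairs, the member's percentile minus that of its partner had a median of 2.56 (0.313 to 5.05), a small difference. Partners of the shared narrow peaks with neighbours had a median percentile of 63.8 (62.5 to 64.8), which overlaps that of the members' partners. The replicate 1 percentile was the higher of the pair in 317 of 576 members (55.0%, interval 50.9 to 59.1%).

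The order of the members by score agreed only in part between the libraries. Across the 576 members the Spearman correlation of replicate 1 and replicate 2 scores was 0.36, and across the 6124 shared narrow peaks with neighbours it was 0.34. Both percentiles were over 50 in 254 members (44.1%, interval 40.0 to 48.3%), over 75 in 101 (17.5%, 14.5 to 20.9%) and over 90 in 31 (5.38%, 3.69 to 7.55%). For shared narrow peaks with neighbours these shares were 48.8%, 20.2% and 6.38%, each higher than that of the members, and the first lies outside the members' interval. Counted in each list whatever the rank in the other, 89 members were over the 90th percentile in replicate 1 and 81 in replicate 2. Both counts include the 31 members over it in both lists. At the other end, both percentiles were at most 50 in 106 members (18.4%). Of the 214 members over the 75th percentile in replicate 1, 19 were at most at the 25th in replicate 2. Of the 183 over the 75th in replicate 2, 11 were at most at the 25th in replicate 1. These reversals came to 3.30% and 1.91% of all members, and they were not counted for shared peaks with neighbours. The plot of percentiles shows the members with reversed order as the points near the lower right and upper left corners.

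**Figure D1:**
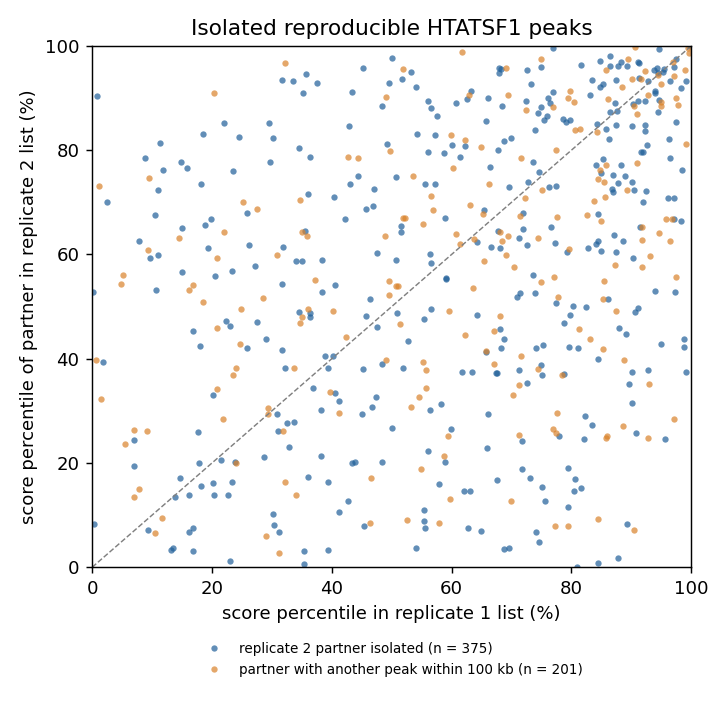
Score percentile of each of the 576 members in the replicate 1 list (horizontal axis, %) and of its highest-scored partner in the replicate 2 list (vertical axis, %). Blue points are the 375 members whose partner is itself isolated by 100 kb in replicate 2, orange points the other 201, and the dashed line marks equal percentiles. Points are spread widely about the line and are densest at the upper right.

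The overlap rule limits how far apart matched peaks can lie, so their alignment is a description. At least 50% of both peaks was in common in 391 of 576 pairs (67.9%). The midpoints of a member and its partner lay a median of 76.5 bp apart (interval 70.5 to 84.5), against 77.5 bp (75 to 79.5) for shared narrow peaks with neighbours. The distance was at most 100 bp in 359 members and over 200 bp in 50, and the largest was 450.5 bp. The 2 peaks of a pair had a median of 265.5 bp in common, which was 60.7% of the member and 97.2% of the partner. At least 100 bp were in common in 542 members, and under 50 bp in 13. For 255 members the whole partner lay inside the member, and 27 members lay inside their partner. Partners were narrower than members in 471 of 576 pairs, with a median width of 306 bp (289 to 318). Replicate 2 peaks were narrower in general, with a list median of 289 bp against 402 bp in replicate 1. Widths of members and partners had a Spearman correlation of 0.40.

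**Figure D2:**
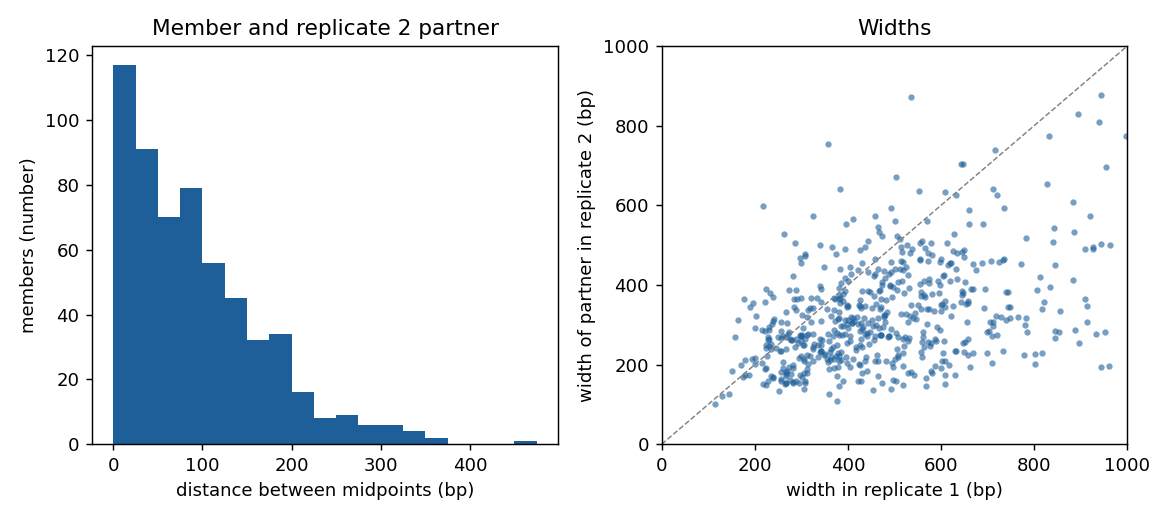
Left, number of members by the distance between the midpoints of the member and its replicate 2 partner (bp, bars of 25 bp). Right, width of each member in replicate 1 against the width of its partner in replicate 2 (bp), with the dashed line at equal widths. Most distances are under 100 bp, and 471 of 576 points lie under the line.

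The member that ranked highest over both lists lay at chr4:108952539-108953147, with a score of 469.6 in replicate 1 and 459.8 in replicate 2, the highest of the members in both. Its partner covered 584 of its 609 bp. The nearest other replicate 1 peak was 150.4 kb away, and the nearest other replicate 2 peak 150.5 kb from the partner, so the region stood alone in both libraries. The next member, at chr9:120842050-120842769, scored 429.0 and 337.2, and its nearest replicate 1 neighbour was 172.5 kb away. It was matched by a pair of replicate 2 peaks that were 3 bp apart (0.003 kb). The third, at chr1:164500459-164501089, scored 448.2 and 252.5 and had a replicate 2 peak 21.7 kb from its partner. These 3 were the members with a mean percentile over 99 (99.8, 99.6 and 99.1).

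The following 12 members by mean percentile had values from 97.5 down to 95.01. On chromosome 4, chr4:136158409-136158919 scored 306.6 and 221.3 and was isolated in both lists. On chromosome 1, chr1:60236983-60237810 scored 370.2 and 189.8, and chr1:127332020-127332755 scored 262.0 and 185.6. The latter had no replicate 1 peak for 3867 kb on its left and one 124.5 kb away on its right. Chromosome 2 held chr2:132403389-132404273 (scores of 384.3 and 169.9) and chr2:139995979-139996922 (297.7 and 177.4). At the second of these the replicate 2 partner was 877 bp wide, the widest partner of any member. Chromosome 9 held chr9:117949060-117949770, which scored 262.9 and 192.0, with 2682 kb free of replicate 1 peaks on its left. All of these regions were in the upper 10% of both lists by score.

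The remaining members of this group lay one to a chromosome. At chr15:68089744-68090278 the replicate 2 score, 314.2, stood higher in its list (percentile 99.5) than the replicate 1 score of 252.8 did (94.7). The same held more clearly at chr17:17510813-17511644, with 400.9 in replicate 2 (99.9) and 211.5 in replicate 1 (90.7). At chr14:121905444-121906040 the scores were 294.5 and 208.9 and the midpoints 5 bp apart. At chr10:105278106-105278660 they were 298.7 and 196.1. This region was the most remote of the 15, with its nearest replicate 1 neighbour 549.1 kb away on the right and none for 5328 kb on the left. The last were chr3:97817117-97817810 (334.2 and 158.8) and chr18:9449872-9450531 (247.7 and 193.2). Of the 17 chromosomes, 10 thus had a member among the leading 15.

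On the other 7 chromosomes the highest-ranked member had a mean percentile between 87.5 and 94.9. On chromosome 5 it was chr5:42235368-42235797, with scores of 282.5 and 169.7. On chromosome 13 it was chr13:17786794-17787406 (216.2 and 208.7), and on chromosome 12 chr12:88488104-88489100 (257.6 and 165.0), the widest member of all at 997 bp. On chromosome 16 it was chr16:18876399-18877325 (306.5 and 147.8), which overlapped a pair of replicate 2 peaks. The leading members of chromosomes 6 and 7 were chr6:40275241-40275710 (219.3 and 173.4) and chr7:88489865-88490402 (194.4 and 210.3). That of chromosome 19, chr19:23348038-23348610, scored 190.2 and 136.4 and had the lowest mean percentile of the 17, 87.5. Every chromosome of the rule therefore held a member that was over the 87th percentile in both lists.

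Some members were separated from every other replicate 1 peak by more than 1 Mb, though replicate 2 peaks could lie closer. The nearest replicate 1 neighbour was a median of 169.9 kb away (interval 155.5 to 180.9). It was over 200 kb away in 238 members (41.3%), over 500 kb in 76 (13.2%) and over 1000 kb in 28 (4.86%). The 816 unshared isolated peaks had a larger median, 201.0 kb (187.7 to 213.8). Among them these shares were 50.2%, 15.8% and 5.39%, so remoteness was not particular to the members. The 571 members with a peak on either side lay in stretches free of other replicate 1 peaks with a median length of 755.3 kb, left and right gaps added. The member farthest from any other was chr3:46725285-46725414, only 130 bp wide, with 2623 kb to its nearest neighbour. It scored 66.8 in replicate 1 and 67.8 in replicate 2 (percentiles of 29.0 and 43.8), and its partner was 4303 kb from the next replicate 2 peak. A region at chr12:96933335-96933534, 200 bp wide, followed at 2564 kb with scores of 69.0 and 58.8, and the peaks had 33 bp in common. The third was chr7:94395065-94395286, at 2091 kb, with scores of 54.7 and 91.2. These 3 were narrow and under the 32nd percentile in replicate 1.

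The next by distance were stronger in replicate 1. At chr2:44782125-44783050, 1803 kb from its nearest neighbour, the replicate 1 score was 383.0 (percentile 99.1) while that of replicate 2 was 64.3 (37.4). At chr5:69947999-69948470, 1709 kb away, the scores were 152.5 (79.4) and 53.4 (11.5). Across all members, remote regions had only slightly lower scores. The Spearman correlation of score with the distance to the nearest replicate 1 peak was -0.12 in replicate 1 and -0.11 in replicate 2, both of them weak.

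The members with the largest disagreement in rank show how far the scores of overlapping peaks could differ between the libraries. At chr19:29596372-29596971 the percentile was 87.7 in replicate 1 (score 191.1) and 1.76 in replicate 2 (50.50). At chr3:132972882-132973580 it was 84.5 and 0.722, and at chr18:32070080-32071031 it was 90.5 and 7.05. In these 3 the replicate 2 scores, 50.19 to 51.89, were just over the lowest value of the list. The opposite was seen at chr13:110050836-110051098, with a percentile of 0.844 in replicate 1 (score 50.42) and 90.5 in replicate 2 (150.6). It was also seen at chr3:9159082-9159381 (1.12 and 73.2) and at chr10:68496182-68496514 (20.3 and 91.0). The midpoints of member and partner were 120.5, 310 and 365.5 bp apart in the first 3 regions and 258.5, 58 and 82.5 bp in the others. Some of these pairs thus overlapped only in part. A peak with a score near the lower end of one list could therefore overlap a peak in the upper 10% of the other.

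Most members were also isolated in replicate 2, which the rule did not use. The partner had no other replicate 2 peak within 100 kb in 375 of 576 members (65.1%, interval 61.1 to 69.0%). Over all 11111 replicate 2 peaks on the same chromosomes the background was 14.0%. Among the 5866 replicate 2 partners of shared narrow peaks with neighbours it was 7.69% (7.02 to 8.40%). Overlap ties the position of the partner to that of the member, and the libraries share cells and antibody, so the neighbourhoods in both lists are not independent. Members whose partner was isolated and the other 201 had like score percentiles in replicate 1, with medians of 65.7 (59.0 to 68.7) and 66.2 (60.2 to 71.2).

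Where the stretch around a member was not empty in replicate 2, it held few peaks. Peaks of replicate 2 that lay within 100 kb of a member without overlapping it were found at 182 members (31.6%, interval 27.8 to 35.6%) and came to 228 in all. The other 394 members include some with a further replicate 2 peak that overlaps them. At least 2 were found at 40 members and at least 3 at 5, and no member had more than 4. Of the 816 unshared isolated peaks, 199 (24.4%, 21.5 to 27.5%) had a replicate 2 peak within 100 kb, 79 within 10 kb and 46 within 1 kb. These 46 narrowly missed the overlap that made a peak a member. For the unshared peaks the nearest replicate 2 peak was a median of 181.8 kb away (170.0 to 198.8).

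The strongest isolated peaks without a match had replicate 1 scores within the range of the leading members, 211.5 to 469.6. The highest, at chr16:56717099-56717936, scored 318.9 in replicate 1 (percentile 97.8), and no replicate 2 peak lay within 403.8 kb. The second, at chr4:22284450-22285127 (299.0), had a replicate 2 peak 256 bp away (0.256 kb). The third, at chr1:46910040-46911006 (293.9), had none within 203.0 kb.

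At equal score, the share of isolated peaks was mostly the lower one, by differences that stayed within counting error in single parts of the list. The wide intervals of single parts cannot show that the shares are equal. When the replicate 1 list was cut into 10 equal parts by score, the share of isolated narrow peaks that overlapped replicate 2 went from 16.8% (23 of 137) in the lowest part to 84.0% (89 of 106) in the highest. For narrow peaks with neighbours it went from 20.9% to 85.8%. The isolated share was the lower one in 8 of the 10 parts, but its interval included the other share in each of them. In the seventh part, for example, it was 46.1% (interval 37.7 to 54.7%) against 53.1%. If each isolated peak had recurred at the share of peaks with neighbours in its own part, 609.0 of 1392 would have been shared (43.7%), against 576 found (41.4%). With width bands taken into account as well, the figure was 594.0 of the 1390 that could be placed. Both figures lie within the interval of the observed share, 38.8 to 44.0%.

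**Figure D3:**
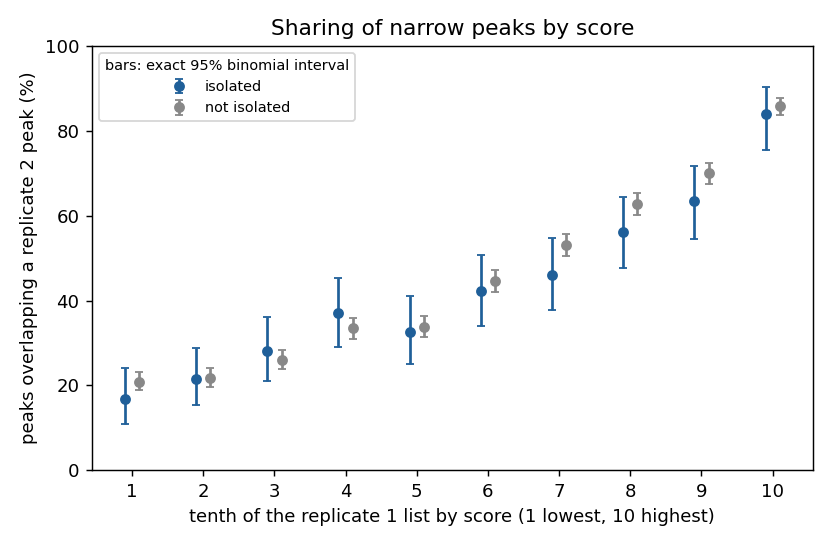
Share of narrow replicate 1 peaks that overlap a replicate 2 peak (%), by 10 equal parts of the replicate 1 list by score, for isolated peaks (blue) and peaks with a neighbour within 100 kb (grey). Bars are exact 95% binomial intervals. Both series climb from under 25% in the lowest part to over 80% in the highest, and the bars of the isolated peaks take in the grey points.

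Among the isolated peaks, the share that recurred was 47.2% just past the distance limit and between 35.4% and 41.7% in every farther band. The nearest neighbour lay 100 to 150 kb away in 509 of them, and 240 were shared (interval 42.7 to 51.6%). At 200 to 300 kb the share was 35.4% (29.4 to 41.8%, 86 of 243), and beyond 1000 kb it was 38.9% (27.6 to 51.1%, 28 of 72). Scores differed as well, with median percentiles of 54.8, 40.7 and 32.9 in these bands. The shares that narrow peaks of like score had in general were 46.6%, 40.1% and 35.6%, and each lay within the interval of its band. In the bands of 150 to 200, 300 to 500 and 500 to 1000 kb the observed shares were 41.7%, 38.0% and 36.1%, against 43.8%, 44.0% and 41.2% at like score, also within the intervals. With all bands past 200 kb pooled, 36.7% of 648 peaks were shared (33.0 to 40.6%). The share at like score, 41.0%, lay above this interval. The distance of 200 kb was a planned setting, but its comparison at like score was chosen after the values were seen. With the lists exchanged, isolated narrow peaks of replicate 2 recurred in replicate 1 in 58.1% of cases (53.8 to 62.4%) at 100 to 150 kb, in 50.5% (44.6 to 56.4%) at 200 to 300 kb and in 41.9% (31.3 to 53.0%) beyond 1000 kb. There the shares at like score were 63.7%, 61.8% and 58.0%, all of them above the intervals. Over all isolated narrow replicate 2 peaks the share was 54.0% (51.5 to 56.5%) against 62.3% at like score. Smaller shortfalls were seen in some bands of replicate 2 peaks with neighbours. With a neighbour 60 to 100 kb away the share was 60.3% (57.0 to 63.5%) against 64.9% at like score, and at 1 to 10 kb it was 62.2% (60.1 to 64.2%) against 64.3%. At 10 to 30 kb it was 63.5% against 64.4%, and at 30 to 60 kb 66.4% against 65.4%, both within the intervals. Under 1 kb it was 72.1%, above the 62.7% at like score. The 2 directions count the same overlaps and do not replicate each other.

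**Figure D4:**
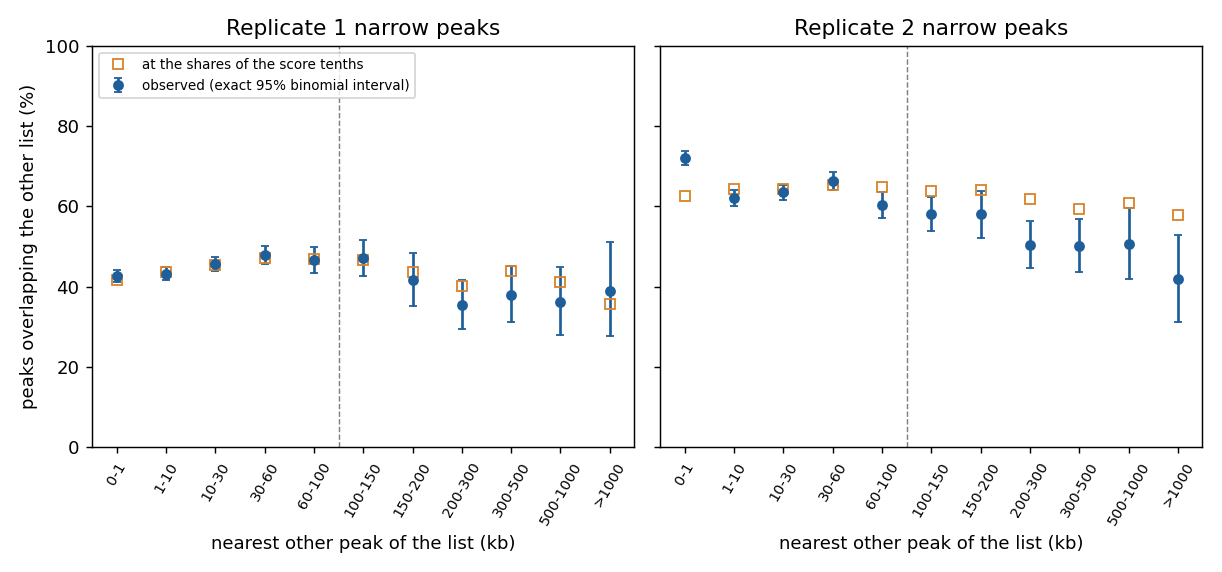
Share of narrow peaks that overlap the other list (%), by the distance to the nearest other peak of their own list (kb), for replicate 1 (left) and replicate 2 (right). Blue points with bars are observed shares with exact 95% binomial intervals, orange squares the shares that the score parts alone give, and the dashed line marks 100 kb. Past this line the blue points fall below the squares in every band of replicate 2, and the bars of replicate 1 take in the squares.

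Members were found on all 17 chromosomes. Chromosome 1 had the most, 68 of its 147 isolated narrow peaks, followed by chromosome 2 with 50 of 121, chromosome 6 with 46 of 117, chromosome 3 with 44 of 94 and chromosome 5 with 42 of 91. Chromosome 4 had 38, chromosome 10 had 36, the included part of chromosome 7 had 33, chromosome 18 had 32, chromosome 9 had 31 and chromosome 13 had 30. Chromosomes 15, 12 and 14 had 29, 26 and 23, chromosomes 16 and 17 had 17 each, and chromosome 19 had 14. Per 100 Mb between the first and last replicate 1 peak, the number was highest on chromosome 18 (36.6) and chromosome 1 (35.3) and lowest on chromosome 16 (17.9) and chromosome 17 (18.4). The number of members followed the span of the chromosome, with a Spearman correlation of 0.86 over the 17 chromosomes, more than its number of peaks (0.54). Span and number of peaks share the size of the chromosome.

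**Figure D5:**
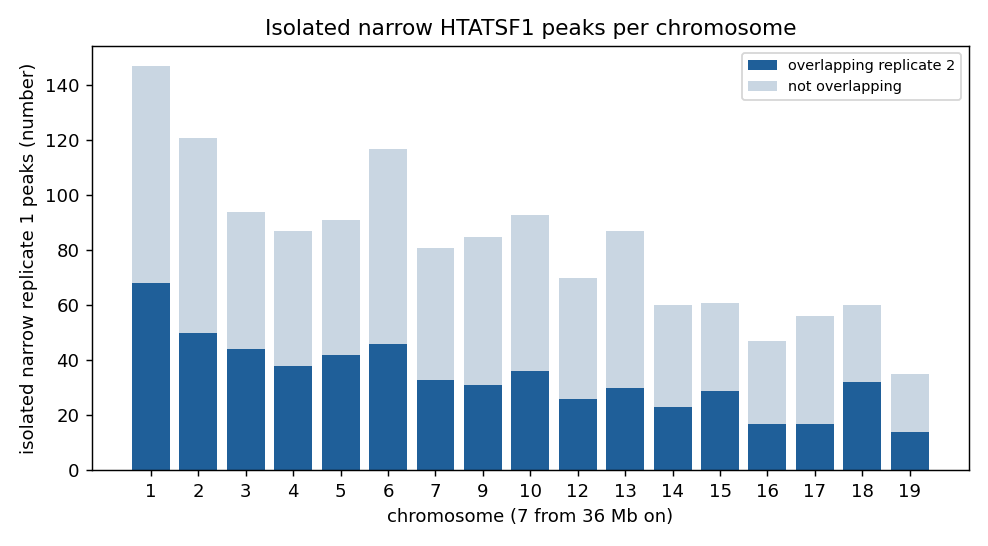
Number of isolated narrow replicate 1 peaks on each of the 17 chromosomes, of which those overlapping a replicate 2 peak (the members) are dark and the others pale. Chromosome 1 has the tallest bar, with 68 members of 147, and chromosome 19 the shortest, with 14 of 35.

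Chromosomes with few genes mostly gave a larger part of their peaks as members. Gene positions of mm9 were not used, so the gene context could be described only for whole chromosomes, from the number of protein-coding genes per chromosome in RefSeq's GRCm38 annotation. On chromosome 1, with 6.25 such genes per Mb of span, 6.81 of every 100 replicate 1 peaks were members, and on chromosome 18, with 5.85, it was 6.68. Chromosome 12 had the fewest genes, 5.79 per Mb, but only 3.81 members per 100 peaks, fewer than chromosomes 3, 6, 10 and 13. On chromosome 17, with 11.5 genes per Mb, it was 1.69, and on chromosome 19, with 12.2, it was 2.09. Over the 16 whole chromosomes the Spearman correlation of genes per Mb with members per 100 peaks was -0.79. With members per 100 Mb it was -0.31, and with all replicate 1 peaks per Mb 0.86. Both members per 100 peaks and peaks per Mb rest on the number of peaks, and a list that is less dense holds more isolated peaks by the rule itself. Which genes lie at or near single members was not analysed here.

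The share of isolated peaks that recurred was between 30.4% and 53.3% over the chromosomes. It was highest on chromosome 18, 32 of 60 (interval 40.0 to 66.3%), and lowest on chromosome 17, 17 of 56 (18.8 to 44.1%). These intervals overlap. Narrow peaks with neighbours on the same chromosomes were shared in 40.5% and 45.4%, the reverse order. Members of chromosome 5 had the highest median percentiles of any chromosome in both lists, 73.5 and 70.1. Those of chromosome 6 had 52.5 and 43.7, the latter being the lowest of the 17 in replicate 2. The lowest median percentile in replicate 1, 51.6, was that of chromosome 15. These medians rest on 14 to 68 members per chromosome and have no intervals. They were not set beside other peaks of the same chromosomes, so they are not shown to be traits of the members.

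Members lay in most windows of 5 Mb, and whether they cluster was not tested. Of 433 windows of 5 Mb with a replicate 1 peak, 300 held a member. A single member was found in 134 of these, 2 in 98, 3 in 37, 4 in 20 and 5 in 11, and no window had more. On chromosome 1, 3 successive windows from 50000001 to 65000000 held 5 members each. In the first of them 13 of the 20 replicate 1 peaks were isolated and narrow. On chromosome 4, the window from 5000001 to 10000000 held only 10 replicate 1 peaks, of which 7 were isolated and narrow and 5 were members. A count per window is limited by the rule, since isolated peaks cannot lie within 100 kb of each other.

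Peaks on either side of the limits of the rule were as follows. The members closest to the distance limit were chr5:119010085-119010367 (100.015 kb, score 60.4), chr17:79034933-79035423 (100.4 kb, 75.3) and chr16:45742767-45743280 (100.8 kb, 124.5). Just outside it were chr10:43987911-43988506 (99.9 kb, 131.8), chr18:14841037-14841468 (99.9 kb, 100.01) and chr12:104663881-104664363 (99.8 kb, 118.1). After the 997 bp region on chromosome 12, the widest members were chr1:7078550-7079512 (963 bp, score 318.6) and chr18:3507385-3508345 (961 bp, 301.1). Isolated shared peaks just over the width limit were chr18:65046720-65047724 (1005 bp, 181.6), chr2:154616209-154617233 (1025 bp, 350.5) and chr10:70061668-70062703 (1036 bp, 242.5).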

How the data were processed

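For each of the 2 immunoprecipitated libraries the authors deposited its own peak list, with positions (other values than the score) and a score per peak, and no list of pooled libraries was used. Per the submitters' processing notes, Bowtie, Picard 1.82 and bedtools were used with build mm9. Per the deposited files, peak names begin with MACS; its settings and the meaning of the score are not given in the sources.

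Groups and replicate numbers came from sample titles. Gaps were measured edge to edge within the whole replicate 1 list. Percentiles are ranks over the whole list, ties averaged. Shares at like score weight the shares of 10 equal parts of the list by score. The named regions are the 15 members with the highest mean percentile, the highest on each chromosome, the 5 most remote, the 3 largest rank differences each way, the 3 highest-scored unshared isolated peaks, and 3 on either side of each limit. Members, lists and settings were chosen with earlier results of these data known. Planned gene and sequence descriptions were not run, since neither an annotation nor a genome of mm9 was used. The selection code was tested on simulated lists. Values were computed with pandas 2.3.3, scipy 1.17.1 and numpy 2.4.6 under Python 3.11.15, and plots drawn with matplotlib 3.10.9.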

Additional observations from a re-analysis of the deposited data

How the results depend on the processing

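Of 90 alternative values, 50 stayed within 1.5 times the main count of members or within the interval of the main value. The other 40 follow, without a test; the cause of a shift was not tested unless the setting's construction shows it. The number of members was 1217 with an isolation distance of 50 kb, 238 with 200 kb, 343 under 500 bp wide and 254 in the upper 50% by score with isolation judged in the whole list. The share of isolated narrow peaks that recurred was 28.2% when the overlap had to cover 50% of each peak, 44.0% at 50 kb, 36.7% at 200 kb, 33.4% under 500 bp, 38.3% in the upper 50% (whole list) and 54.0% with the lists exchanged. For narrow peaks with neighbours it was 29.7% with the 50% overlap, 33.7% under 500 bp, 46.0% with peaks under 1 kb apart joined and 65.5% with the lists exchanged. Median percentiles of members were 47.1 under 500 bp, 79.5 and 82.1 in the upper 50% (isolation within it and in the whole list) and 60.8 after joining. Those of partners were 68.0 with the 50% overlap, 53.8 at 200 kb, 54.1 under 500 bp, 78.6 and 79.8 in the upper 50%, and 66.6 with the lists exchanged. Median widths were 430 bp with the 50% overlap, 478 bp at 50 kb, 414 bp at 200 kb, 364 bp under 500 bp, 545 and 537 bp in the upper 50%, 479 bp after joining and 323 bp with the lists exchanged. The share of partners isolated in their own list was 70.8% at 50 kb, 58.4% at 200 kb, 77.3% in the upper 50% (isolation within it) and 45.2% with the lists exchanged. The Spearman correlation of scores was 0.48 with the 50% overlap, 0.25 under 500 bp and 0.26 in the upper 50% (whole list). The part of members on chromosome 1 was 9.20% at 50 kb. Settings for this part and for the correlation were added after the data were seen. A score or width limit changes medians by its own construction. Leaving out a replicate gives no value, since the overlap needs both lists. No paired analysis was possible because the result comes from no test and inputs, which carry the same numbers, were not analysed here. With the depth unknown, an isolated peak without a match is not shown to be unbound in replicate 2.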
